A study of Mus musculus with 37 samples.

Results

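Ribosome biogenesis and MYC target genes were followed as a set of 36 named mouse genes across cultured astrocytes. The set holds nucleolar proteins, RNA polymerase I subunits, proteins of small nucleolar ribonucleoproteins (snoRNPs), assembly factors of both ribosomal subunits, and metabolic enzymes known as MYC targets. Each gene was represented by the probe set, named for it alone, with the highest mean over all 37 arrays. That gave 34 of the 36 genes, among 18194 genes that the array's annotation names. For Npm3 and Mrto4 no probe set named for the gene alone was used here. All 34 probe sets passed the filter on dim signals, which asks for a value above 3.189, the median of the whole table, on at least 4 arrays.

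The cells were primary astrocytes of newborn mice (postnatal day 0 to 1), from the strains C57BL/6J (B6) and 129S4/SvJae (129). They were nucleofected with 5 µg of a pcDNA3.1-hygro plasmid with CDCA7L, or of the same plasmid without insert (vector), kept as stable transfectants, and grown in medium with 20% serum. The Cdca7l and vector groups held 5 and 5 arrays in B6 males, 4 and 5 in B6 females, 5 and 5 in 129 males, and 4 and 4 in 129 females. The design text calls the isolates independent, and the arrays carry clone labels such as 4(1) that Cdca7l and vector arrays of a strain and sex can share, so the 8 arrays of 129 females hold 4 labels, against 6 labels in each of the other strain and sex groups.

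A cell makes ribosomes in the nucleolus. RNA polymerase I transcribes the ribosomal RNA precursor, snoRNPs direct its chemical modification, and assembly factors fold, cut and join it with ribosomal proteins into the small and the large subunit. The transcription factor MYC, paired with MAX, binds E-boxes, of which CACGTG is the canonical form, and raises many of these genes together with enzymes of nucleotide, polyamine and one-carbon metabolism. CDCA7L is a nuclear protein that binds MYC.

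The promoters of 3 members with CACGTG, all lower in B6 females than in 129 females in the comparisons that follow, are shown beside that of Noc2l, the member with the largest negative strain difference, whose window lacks it. They run from 250 bases before the transcription start to the first 30 bases from it, 5′ to 3′ on the strand of the gene (RefSeq, GRCm38.p6). They lie at chr6:125131633-125131912 (plus strand) for Nop2, chr1:34439579-34439858 (plus strand) for Imp4, chr11:93968243-93968522 (minus strand) for Nme1 and chr4:156235765-156236044 (plus strand) for Noc2l. Capitals mark CACGTG in the first 3 and the related letters CACGCG in Noc2l.
Nop2: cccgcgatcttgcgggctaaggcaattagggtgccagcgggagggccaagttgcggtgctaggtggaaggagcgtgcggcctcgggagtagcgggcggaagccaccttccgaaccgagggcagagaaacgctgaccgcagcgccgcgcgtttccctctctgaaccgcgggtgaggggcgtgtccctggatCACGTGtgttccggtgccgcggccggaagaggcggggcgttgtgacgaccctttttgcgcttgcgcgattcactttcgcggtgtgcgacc
Imp4: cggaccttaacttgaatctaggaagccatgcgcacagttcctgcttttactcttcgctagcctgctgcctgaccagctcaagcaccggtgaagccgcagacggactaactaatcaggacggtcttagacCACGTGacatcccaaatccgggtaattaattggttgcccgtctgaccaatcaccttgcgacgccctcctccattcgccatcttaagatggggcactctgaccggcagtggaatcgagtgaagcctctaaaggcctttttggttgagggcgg
Nme1: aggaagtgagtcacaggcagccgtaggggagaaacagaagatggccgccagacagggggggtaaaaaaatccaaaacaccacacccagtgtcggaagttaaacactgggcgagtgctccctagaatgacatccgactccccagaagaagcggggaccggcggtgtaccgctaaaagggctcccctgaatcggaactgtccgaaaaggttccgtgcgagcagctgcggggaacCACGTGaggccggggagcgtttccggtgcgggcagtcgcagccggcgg
Noc2l: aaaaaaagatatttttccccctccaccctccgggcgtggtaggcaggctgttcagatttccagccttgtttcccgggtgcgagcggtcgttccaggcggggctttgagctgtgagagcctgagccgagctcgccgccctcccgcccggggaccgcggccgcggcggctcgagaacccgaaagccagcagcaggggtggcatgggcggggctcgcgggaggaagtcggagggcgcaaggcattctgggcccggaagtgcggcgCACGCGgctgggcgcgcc

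In the full 300-base windows of 29 members, CACGTG, which reads the same on both strands, was found for 6 genes (20.7%), against 8.1% of the 27025 genes with a promoter in the same table and 10.1% of those with a GC content between the lower and upper quartile of the members. Counted from the start, its first base lay at -60 in Nop2, -121 in Imp4, -18 in Nme1, 2 in Pes1, 37 in Utp20 and 40 in Mybbp1a. A second promoter of Nme1, not shown, has it at -29. Of these 6 genes, Pes1 and Utp20 were called in no comparison. The letters CACGCG or CGCGTG, the same element on either strand, were in the windows of 10 members (34.5%), against 10.5% of all genes and 13.4% of those with a GC content in the same range. These matches are letters in a window and describe no binding.

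The upper quartile of the log2 values was 9.04 to 9.51 on 36 arrays and 8.36 on that of 129 female vector 1(3). One array goes against its label. Xist read 2.40 on B6 female vector 5.1(1), against at least 10.71 on every other array of females, and the Y-linked gene Eif2s3y read 11.91 there. The 4 arrays of the 129 female labels 4(1) and 2(1) stand apart in cell cycle genes. Their score for G2/M genes, the mean of the listed genes less each gene's mean over 37 arrays, was 2.60 to 3.61 (log2), against at most 1.35 on any other array. Their astrocyte marker score was -2.39 to -1.21, against -0.79 or higher elsewhere. Of 14 astrocyte markers, 11 were above 3.189, taken as background, on all arrays. Among them Aqp4, the water channel, read 11.33 to 14.50 and Gfap 10.02 to 13.97. Slc1a2 was above it on 36 of 37 arrays, S100b on 13 and Gjb6 on 3. Markers of other cell types were present in part. Of 14 microglia and macrophage markers, 3 (Cx3cr1, Itgam and Trem2) were at background on every array, 2 (Cd68 and Fcer1g) were above it on all 37, and the other 9 on some, with C1qb up to 12.04 and Laptm5 up to 12.08. Of 10 neuron markers, 3 (Rbfox3, Slc17a7 and Dcx) were at background throughout, and Stmn2 (12.66 to 14.41) and Map2 (8.91 to 12.78) were above it on all arrays. Of 8 endothelial markers, 3 (Pecam1, Cdh5 and Cldn5) were at background throughout and 0 above it on all arrays, with Flt1 up to 9.57. Of 9 oligodendrocyte lineage markers Mag was at background throughout, and 3, among them Olig1 (9.08 to 13.33), were above it on all arrays. Of 10 ependymal and choroid plexus markers 3, and of 10 fibroblast and meningeal markers 4, were above background on all arrays. In bulk RNA, fewer cells of a type and less RNA per cell cannot be told apart.

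The score of the 34 members, formed in the same way, was highest in 129 females. It averaged -0.12 ± 0.34 in B6 males (SD, n = 10), -0.13 ± 0.28 in B6 females (n = 9), -0.15 ± 0.23 in 129 males (n = 10) and 0.48 ± 0.47 in 129 females (n = 8). Of the 34 members, 26 had their highest mean of the 4 strain and sex groups in 129 females. The same count was not made over all probe sets. Averaged over plasmids, 4 of 34 members were higher in B6 females than in 129 females, against 54% of all probe sets. In 129 males 3 members were higher than in 129 females, against 56.6% of all probe sets. The 129 female arrays were not alike: the label 4(1) gave 1.01 with Cdca7l and 0.97 with vector, 2(1) gave 0.63 and 0.76, 1(3) gave -0.33 and 0.53, and 2(3) gave 0.21 and 0.03. Outside 129 females the highest scores were those of B6 male 4(3), at 0.41 with Cdca7l and 0.57 with vector.

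**Figure D1:**
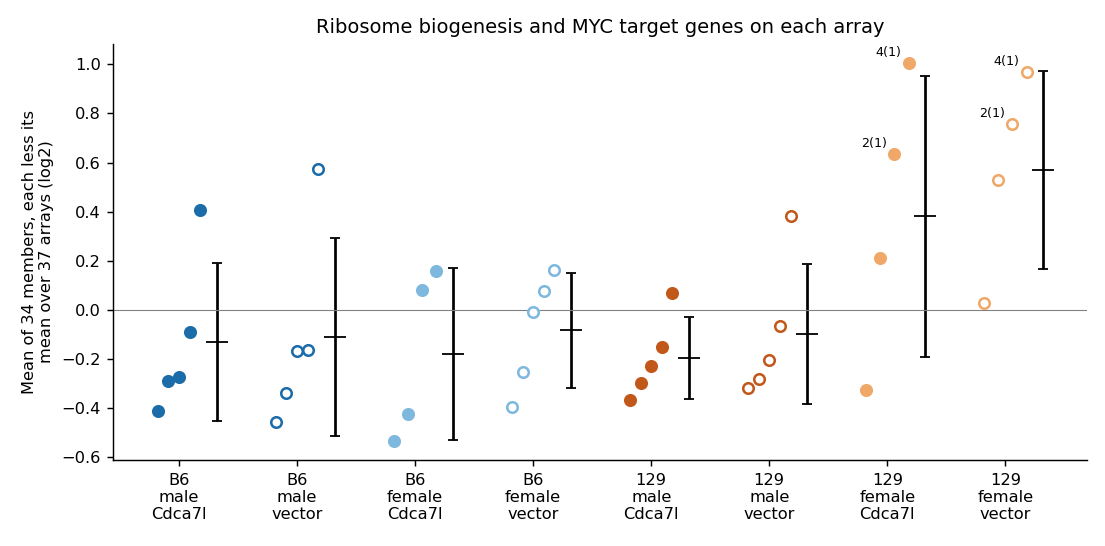
Score of the 34 members (mean log2 value, each less its mean over 37 arrays) for each array in the 8 groups. Filled points are Cdca7l arrays, open points vector arrays, and bars give the mean ± SD. The 129 female arrays of the labels 4(1) and 2(1) lie between 0.63 and 1.01, above every array of the other strain and sex groups.

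The first question was whether added Cdca7l moved these genes. Cdca7l itself averaged higher in the Cdca7l group than in the vector group of each strain and sex. Its probe set averaged 12.46 ± 1.71 with Cdca7l and 7.72 ± 2.04 with vector in B6 males (SD, n = 5 each), 13.07 ± 0.97 (n = 4) and 7.98 ± 0.80 (n = 5) in B6 females, 12.40 ± 0.40 and 8.53 ± 0.56 in 129 males (n = 5 each), and 12.36 ± 1.48 and 7.62 ± 2.81 in 129 females (n = 4 each). The averaged difference was 4.62 on the log2 scale (24.5-fold, SE 0.48, limma adjusted p = 1.25e-06).

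No member passed the test for Cdca7l minus vector averaged over the 4 strain and sex groups, at a Benjamini-Hochberg adjusted p under 0.05 in limma over 25579 probe sets. That test called 2 probe sets in all, 0.00782%. At an unadjusted p under 0.05, 0 members were higher and 3 were lower, against 0.512% of all probe sets lower. The median difference over the members was -0.08, against 0.02 over all probe sets, and 8 of 34 members lay above 0, against 55.2% of all probe sets. The 3 members past the unadjusted threshold were Rrp12, Noc2l and Nme1, and Tbl3 (-0.21) had the next largest negative difference relative to its error.

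Rrp12, an export factor of ribosomal precursors, differed by -0.55 ± 0.24 (SE, adjusted p = 0.999, limma). In 129 females it read 8.63 with Cdca7l and 8.93 with vector for the label 4(1), and 7.88 and 8.21 for 2(1). The label 2(3) gave 7.30 and 7.71, and 1(3) gave 6.15 and 9.04, the widest gap. The groups overlapped, and the array of 1(3) was the lowest with Cdca7l and the highest with vector. That vector array is the one with an upper quartile of 8.36. Noc2l, a nucleolar factor of large-subunit assembly, differed by -0.40 ± 0.19 (adjusted p = 0.999, limma). In B6 males it read 7.75, 8.36, 7.90, 7.83 and 7.83 with Cdca7l, against 8.55, 7.95, 9.09, 8.95 and 7.48 with vector. The vector arrays lay on both sides of the Cdca7l arrays. Nme1, a nucleoside diphosphate kinase, differed by -0.26 ± 0.12 (adjusted p = 0.999, limma).

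**Figure D2:**
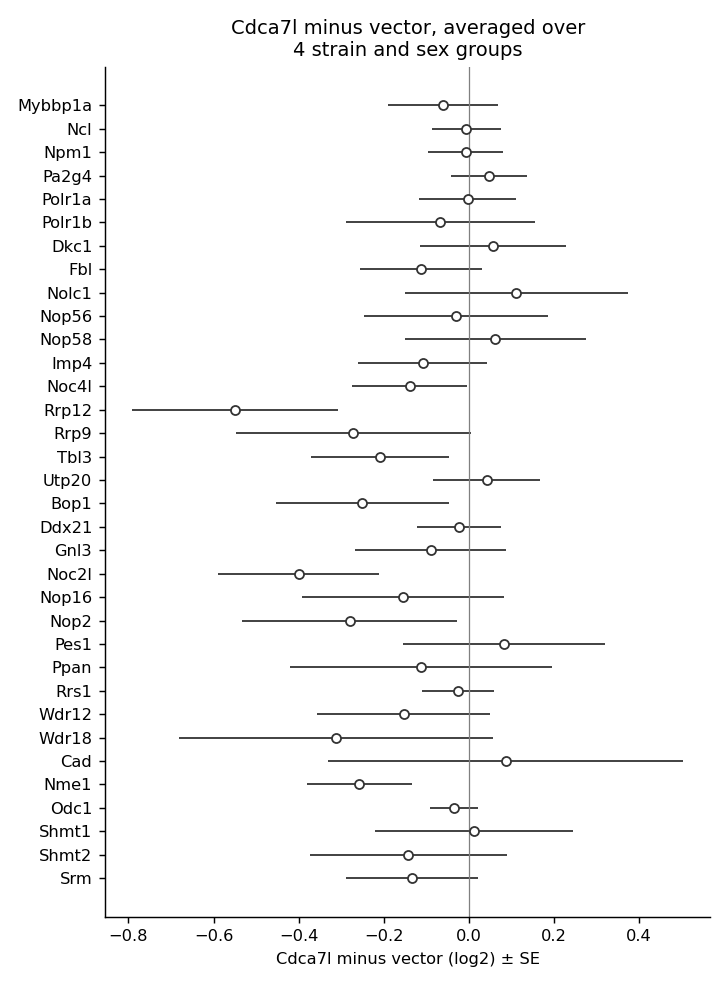
Cdca7l minus vector difference of each member on the log2 scale, averaged over the 4 strain and sex groups, with its SE from the limma fit. Most members lie below 0, and the largest negative value is that of Rrp12, at -0.55.

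The cell cycle and cell type lists had no call in this comparison, but some leaned to 1 side: 26 of 26 G2/M genes lay above 0 (median 0.34), and 0 of 9 microglia and macrophage markers did (median -0.96). Astrocyte markers leaned up as well, with 11 of 13 above 0 (median 0.12). Of the other lists, 3 of 5 oligodendrocyte lineage, 2 of 5 neuron, 6 of 8 ependymal and choroid plexus, 3 of 10 fibroblast and meningeal and 1 of 2 endothelial markers and 15 of 23 S-phase genes lay above 0. Each list had 0 calls. Their part in the member values was not tested.

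Within a strain and sex 0 members were called, as were 0% of all probe sets, in B6 males, B6 females, 129 males and 129 females alike. Also at an unadjusted p under 0.05, 0 members passed in each of the 4. The member medians were -0.00 in B6 males, -0.08 in B6 females, -0.12 in 129 males and -0.20 in 129 females. The change of the Cdca7l effect with sex and that with strain called 0 members and 0% of all probe sets, with 0 members at an unadjusted p under 0.05. Of the other genes of the pathway, 0 of 36 small-subunit assembly genes, 0 of 46 large-subunit assembly genes, 0 of 12 snoRNP genes and 0 of 11 RNA polymerase I genes were called for the averaged Cdca7l effect. In the MYC network Cdca7l was the 1 call among 14 genes tested.

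The second question was how the strains differ. B6 minus 129, averaged over sexes and plasmids, called 12 of 34 members, against 25.2% of all probe sets. Of these, 10 fell in B6, against 10.6% of all probe sets, and 2 rose, against 14.6%. The median over members was -0.35, near 0 over all probe sets (-0.0047), and 5 of 34 lay above 0, against 49.6%. Without the 129 female arrays of the labels 4(1) and 2(1), 4 members were called: Noc2l, Noc4l, Shmt1 and Rrs1. Those 4 arrays also hold the 4 highest member scores, so leaving them out removes the highest values of the members themselves. With vector arrays alone 4 were called as well, and 8 when clone labels entered as a random replicate block. Without the array that goes against its label 10 were called, with a median of -0.33. Centring each array on its median moved the median of all probe sets to -0.10, gave 16 members lower and 1 higher, and brought the higher share of all calls to 41.8%, against 58.0% as deposited.

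Among nucleolar chaperones and scaffold proteins, 2 of 4 fell in B6. Mybbp1a, a nucleolar regulator of transcription, differed by -0.55 ± 0.13 (SE, limma adjusted p = 0.00256). Npm1, the abundant nucleolar chaperone, differed by -0.26 ± 0.09 (limma adjusted p = 0.0288). For Ncl and Pa2g4 the differences were -0.15 and -0.07 and were not called. Neither of the RNA polymerase I subunits was called: Polr1a differed by -0.03 and Polr1b by 0.17.

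Of the 5 snoRNP proteins, 2 fell in B6. Fbl, the methyltransferase of box C/D snoRNPs, differed by -0.40 ± 0.14 (limma adjusted p = 0.0381), and Nop56, a core protein of the same particles, by -0.59 ± 0.22 (limma adjusted p = 0.0434). Nop58, the partner of Nop56, differed by -0.49 and was not called. Nolc1, a chaperone of snoRNPs, went the other way, at 0.37, and was not called.

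Of the small-subunit assembly factors, 2 of 6 fell. Noc4l differed by -0.63 ± 0.14 (limma adjusted p = 0.00122) and Tbl3, a part of the small-subunit processome, by -0.56 ± 0.16 (limma adjusted p = 0.0122). The probe set of Noc4l is of a kind that can cross-hybridise, and its 3 other probe sets differed by -0.66, -0.71 and -0.51. The other 4 factors were below 0 and not called.

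Of the 11 large-subunit assembly factors, 3 fell and 1 rose. Noc2l differed by -0.91 ± 0.19 (limma adjusted p = 0.000821), Nop2, an RNA methyltransferase, by -0.87 ± 0.25 (limma adjusted p = 0.0125), and Bop1, which acts with Pes1 and Wdr12 in the PeBoW complex, by -0.74 ± 0.20 (limma adjusted p = 0.00807). Pes1 and Wdr12 differed by -0.55 and -0.45 and were not called. Rrs1, an assembly factor of the 5S particle, rose in B6, by 0.34 ± 0.08 (limma adjusted p = 0.00406). Like that of Noc4l, the probe set used for Rrs1 is of a kind that can cross-hybridise. The second probe set of Rrs1, with a mean of 12.16, differed by 0.09 and was not called.

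Of the metabolic enzymes, Nme1 fell, by 0.39 ± 0.12 (limma adjusted p = 0.0215), and Shmt1, the cytosolic serine hydroxymethyltransferase, rose, by 1.29 ± 0.23 (limma adjusted p = 0.000152). Its mitochondrial counterpart Shmt2 differed by -0.58 and was not called, nor were Odc1 and Srm of polyamine synthesis (-0.04 and -0.29) or Cad of pyrimidine synthesis (-0.41).

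Averaging hides how the strain difference sits in the sexes, so B6 was set against 129 within each sex, a comparison added after the data were seen. In females 13 of 34 members were called, against 17.6% of all probe sets, and all 13 fell in B6, against 5.55% lower and 12% higher over all probe sets. The member median was -0.69. In males 2 were called, against 10.5% of all probe sets, and both rose, against 4.32% higher and 6.17% lower over all probe sets. With clone labels as a random replicate block 1 of the 2, Shmt1, was called. The member median there was -0.09. Without the 129 female arrays of the labels 4(1) and 2(1), 0 members were called in females and the median was -0.23. In that fit 1750 of all probe sets (6.84%) were called. With arrays of a clone label averaged, so that 6 labels of B6 females stood against 4 of 129 females, 7 members were called. Without the array that goes against its label 11 were called. Centred on the median of each array, the fit called 23 members, all lower, while the median of all probe sets shifted to -0.20 and that of the members to -0.94, and the higher share of all calls was 32.5%, against 68.5% as deposited.

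Noc2l shows the pattern in females. It read 7.43 at the lowest, 7.89 at the median and 8.85 at the highest in B6 females, against 7.73, 9.72 and 10.38 in 129 females. The 8.85 was that of the array that goes against its label. The groups overlapped through the 129 female arrays of 2(3) and of 1(3) with Cdca7l, and the difference was -1.48 ± 0.28 (SE, limma adjusted p = 0.000515). In males the same gene spanned 7.48 to 9.09 in B6 and 8.16 to 9.33 in 129.

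Rrp12 read 5.53, 6.81 and 7.97 at the lowest, median and highest in B6 females, against 6.15, 8.05 and 9.04 in 129 females (-1.31 ± 0.36 SE, limma adjusted p = 0.012). The median of 129 females lay above the highest B6 female array. Nop2, with the first of the promoters shown, read 8.79, 9.96 and 10.51 in B6 females, against 9.31, 11.35 and 11.98 in 129 females (-1.35 ± 0.37, limma adjusted p = 0.0128). Mybbp1a read 11.05, 11.55 and 12.18 in B6 females, against 11.73, 12.60 and 13.11 in 129 females (-0.95 ± 0.19, limma adjusted p = 0.0011). For both genes the groups overlapped in part. Imp4, a part of the U3 snoRNP with the second of the promoters shown, read 9.34, 10.15 and 10.48 in B6 females, against 9.93, 10.94 and 11.32 in 129 females (-0.86 ± 0.22, limma adjusted p = 0.00881). Its second probe set gave -1.44 and was not called, and a dim probe set of it gave 1.64 in the opposite direction (limma adjusted p = 0.0214). Nop56, whose spread in B6 females ran from 10.66 to 13.04, against 11.73 to 13.75 in 129 females, differed by -1.25 ± 0.32 (limma adjusted p = 0.00804).

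Rrp9, a U3 snoRNP protein, was at or near background. It was above 3.189 on 13 of 37 arrays, on 2 of the 9 arrays of B6 females and on 6 of the 8 arrays of 129 females. Its fitted difference in females was -1.18 ± 0.41 (limma adjusted p = 0.0429). The other members called in females were Noc4l (-1.02), Tbl3 (-0.96), Bop1 (-1.07), Nme1 (-0.62), Fbl (-0.71) and Srm (-0.68). Over the roles, 5 of 6 small-subunit factors, 3 of 11 large-subunit factors, 2 of 5 snoRNP proteins, 2 of 6 enzymes, 1 of 4 nucleolar proteins and neither polymerase subunit fell.

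In males Nop2 spanned 7.87 to 10.67 in B6 and 8.99 to 10.94 in 129, and Mybbp1a 11.21 to 12.17 in B6 and 11.56 to 12.09 in 129, and neither was called. Shmt1 set the strains apart in males. It read 6.46, 7.11 and 8.34 at the lowest, median and highest in B6 males, against 3.52, 4.86 and 6.44 in 129 males. The groups did not overlap, with a difference of 2.17 ± 0.32 (SE, 4.52-fold, limma adjusted p = 1.17e-05). In females it read 6.49, 6.79 and 7.04 in B6, against 5.06, 6.55 and 6.78 in 129. The second probe set of Shmt1 gave 0.92 in males (limma adjusted p = 0.049) and a dim probe set, near background on most arrays, gave 0.12. The dim probe set was at 4.86 to 8.37 on the 4 arrays of the 129 female labels 4(1) and 2(1), and at 3.00 or below on all others. Averaged over the sexes the 3 probe sets differed in B6 minus 129 by 1.29, 0.12 and -1.08, with only the first called. Rrs1 rose in B6 males too, by 0.42 ± 0.11 (limma adjusted p = 0.0168), but it was not called with the replicate block (limma adjusted p = 0.0928) or with labels averaged (limma adjusted p = 0.0657). It read 12.72 to 13.67 in B6 males, against 12.57 to 13.15 in 129 males.

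**Figure D3:**
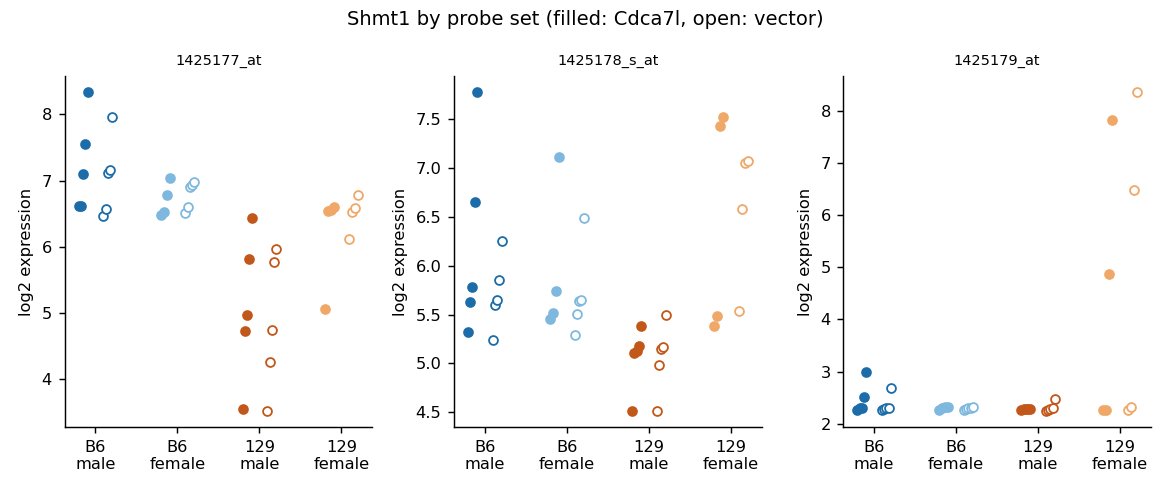
Log2 expression on each array of the 3 probe sets of Shmt1 with detected signal, by strain and sex (filled: Cdca7l, open: vector). The first probe set separates B6 from 129 males, while the dimmest is high on the 4 arrays of the 129 female labels 4(1) and 2(1).

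The last question was sex. Male minus female, averaged over strains and plasmids, called 0 of 34 members, against 0.321% of all probe sets. At an unadjusted p under 0.05, 15 members were lower in males, against 7.49% of all probe sets, and 0 were higher. The member median was -0.33, against 0.01 over all. The smallest adjusted p was 0.0866, for Imp4 (-0.57 ± 0.15 SE, limma). Rrs1 (-0.27), Rrp12 (-0.71) and Nop2 (-0.63) followed, at adjusted p of 0.124, 0.148 and 0.201 from limma. Without the B6 female array that goes against its label the count was again 0, with a median of -0.31. Without 129 female Cdca7l 1(3) the count was 3, and without B6 male vector 4(3) it was 1.

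Within a strain, again added after the data were seen, 9 of 34 members fell in 129 males relative to 129 females, against 8.77% of all probe sets called and 2.71% lower. The member median was -0.69. In B6, 0 members were called, against 0.0352% of all probe sets, with 0 members at an unadjusted p under 0.05, and the median was 0.04. Without the B6 female array that goes against its label the count in B6 was again 0 (median 0.02), with 0.0626% of all probe sets called. Without the 129 female labels 4(1) and 2(1), 0 members were called in 129, the median was -0.20, and 998 of all probe sets (3.9%) were called. With arrays of a clone label averaged 1 member was called, as with the label as a random replicate block. Single arrays moved the count as well: it was 19 without 129 female Cdca7l 1(3), 16 without 129 female vector 2(3) and 15 without 129 male vector 3(3), but 5 without 129 female vector 4(1) and 3 without either 129 female Cdca7l 4(1) or 2(1). Centred on each array's median, the fit called 21 members, all lower, with the median of all probe sets at -0.16, and the higher share of all calls was 25.6%, against 69.1% as deposited.

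Imp4 had the smallest p there. It read 9.00, 9.73 and 10.27 at the lowest, median and highest in 129 males, against 9.93, 10.94 and 11.32 in 129 females. The lowest 129 female array, 1(3) with Cdca7l, lay within the range of 129 males, and the others lay above it (-1.12 ± 0.22 SE, limma adjusted p = 0.00379). Its second probe set gave 0.06, in the opposite direction, and was not called. Dkc1, the pseudouridine synthase of box H/ACA snoRNPs, read 10.21, 10.87 and 11.49 in 129 males, against 11.07, 11.97 and 12.82 in 129 females (-0.97 ± 0.25, limma adjusted p = 0.0182). Srm, the spermidine synthase, read 10.77, 11.30 and 11.91 in 129 males, against 11.23, 12.22 and 12.57 in 129 females (-0.76 ± 0.22, limma adjusted p = 0.0337). For Dkc1 and Srm the 4 highest 129 female values were those of the labels 4(1) and 2(1).

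The other 6 called were Rrp12 (-1.53), Shmt1 (-1.37), Nop56 (-1.11), Noc2l (-0.91), Noc4l (-0.72) and Mybbp1a (-0.69). The second probe set of Shmt1 fell in 129 males too, by 1.45. The dim one was above background only on the 4 arrays of the 129 female labels 4(1) and 2(1). The difference between the strain differences, B6 minus 129 in females less the same in males, called 0 members and 0% of all probe sets. At an unadjusted p under 0.05, 13 members were below 0, against 4.64% of all probe sets, and the smallest adjusted p was 0.127, for Shmt1 (-1.77 ± 0.47 SE, limma). Without 129 female Cdca7l 1(3) it called 4 members. A strain difference that differs by sex was thus not shown for any member with all arrays.

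**Figure D4:**
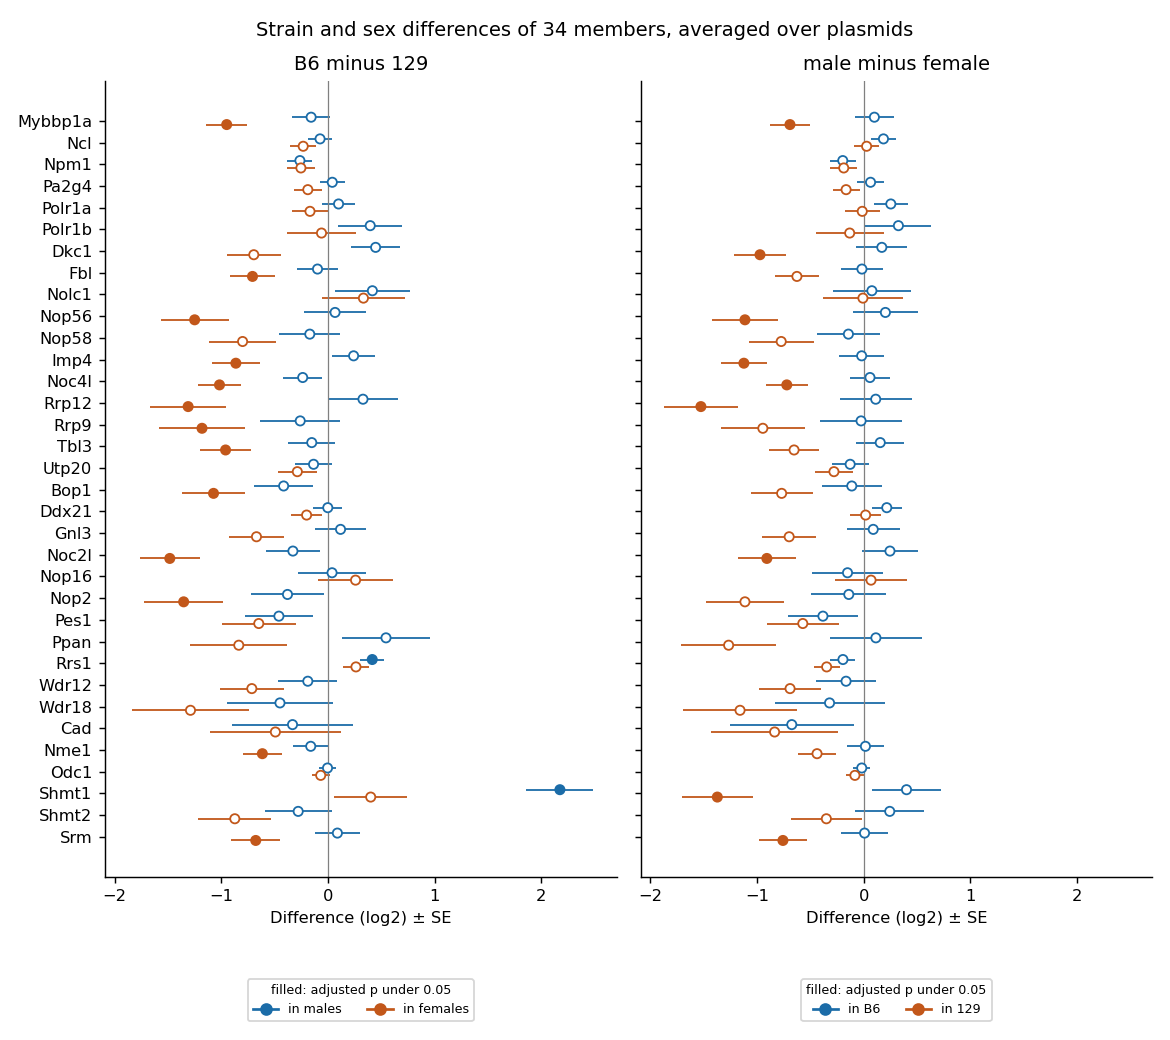
Log2 differences ± SE of the 34 members for B6 minus 129 in males and in females (left) and for male minus female in B6 and in 129 (right), averaged over plasmids. Filled points have a limma adjusted p under 0.05. The filled points for females and for 129 lie below 0, and those for males, Shmt1 and Rrs1, above it.

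Of the 34 members, 17 were called in no comparison. Among those not yet given, the B6 minus 129 difference averaged over the sexes was -0.21 for Utp20, a scaffold of the small-subunit processome, -0.28 for Gnl3 (nucleostemin), a nucleolar GTPase, and -0.10 for Ddx21, a nucleolar RNA helicase. It was -0.87 ± 0.37 (SE, limma adjusted p = 0.0809) for Wdr18, -0.15 for Ppan and 0.15 for Nop16, all factors of large-subunit assembly. Wdr18 had as large a difference as Nop2 with a wider spread between arrays.

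The other genes of the pathway were read from lists beside the members. In B6 minus 129 averaged, where 10.6% of all probe sets fell and 14.6% rose, 12 of 36 other small-subunit assembly genes fell and 2 rose. Among those that fell were Nob1 (-0.94), an endonuclease, and Nat10 (-0.84), an RNA acetyltransferase. Of 46 other large-subunit assembly genes, 15 fell and 1, Noc3l (0.67), rose. Grwd1, a histone-binding assembly factor, differed by -1.11. Of 12 other snoRNP genes 2 fell, including Nhp2 (-0.81), and 1 rose, Rpap3 (0.88). Of 11 other RNA polymerase I genes, Polr1d fell by 0.31, while Ttf1 (1.88), the transcription termination factor, and Taf1b (0.53) rose. The counts of these last lists are near the shares over all probe sets. The serine and one-carbon list of 11 held 3 that fell, including Phgdh (-0.71) and Mthfd1l (-1.23), and 1 that rose, Gldc (0.96). In purine and pyrimidine synthesis 3 of 17 fell, Umps, Impdh1 and Gmps, by 1.01, 0.53 and 0.44.

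In the MYC network 0 of 14 genes were called for the strain, averaged over sexes and plasmids, against 25.2% of all probe sets. Myc read 7.0 ± 2.45 with Cdca7l and 6.60 ± 0.63 with vector in B6 males (SD, n = 5 each), 6.72 ± 0.87 (n = 4) and 5.66 ± 2.38 (n = 5) in B6 females, 7.12 ± 1.73 and 6.99 ± 1.01 in 129 males (n = 5 each), and 7.93 ± 4.09 and 8.10 ± 3.62 in 129 females (n = 4 each). The spread in 129 females was the widest of these. On the arrays of the 129 female labels 4(1) and 2(1) Myc read 10.605 to 11.68, against at most 9.634 on any other array. Those of 2(3) and 1(3) read 2.691 to 7.652. The part of Myc in the member results was not tested. Mycn was at background on most arrays, with group means of 2.56 to 4.22, and Max, the partner of MYC, was at 12.12 to 12.44 in every group. For the averaged Cdca7l effect Myc differed by 0.35 ± 0.74, Mycn by 0.57 ± 0.42 and Max by -0.03 ± 0.10 (limma adjusted p = 0.999 for each).

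In B6 minus 129 in females alone, 16 of the 36 small-subunit genes, 13 of the 46 large-subunit genes and 3 of the 12 snoRNP genes fell, against 5.55% of all probe sets, and 1 small-subunit gene rose. In males 0 of the 36 and 0 of the 46 were called. In 129 males relative to 129 females, 12 small-subunit, 4 large-subunit and 4 snoRNP genes fell, against 2.71% of all probe sets, and none of these rose. The 6 polyamine genes had 0 calls in B6 minus 129 averaged over the sexes.

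The cell cycle and cell type lists were read in the same comparisons. For B6 minus 129, with 10.6% of all probe sets lower and 14.6% higher, 9 of 23 S-phase genes and 5 of 26 G2/M genes fell and 5 of 13 astrocyte markers rose in B6, while 5 of 10 fibroblast and meningeal and 1 of 2 endothelial markers fell. Of the rest, 2 of 5 oligodendrocyte lineage, 3 of 5 neuron and 2 of 8 ependymal and choroid plexus markers rose, 1 neuron and 1 ependymal marker fell, and 0 of 9 microglia and macrophage markers were called. In females, with 5.55% of all probe sets lower and 12% higher, 5 S-phase genes and 3 G2/M genes fell and 4 astrocyte markers rose. In males 7 of 10 fibroblast and meningeal markers fell in B6, with a median of -3.77, and that score ran from -1.89 to -0.89 in B6 males, against -0.74 to 5.03 in 129 males. In 129 males relative to 129 females, 3 of the 10 fibroblast and meningeal markers rose, against 6.06% of all probe sets, and 3 of the 23 S-phase genes fell, against 2.71%. There 1 of 26 G2/M genes fell and 1 of 13 astrocyte markers rose, which is near those shares. The part of these cell states in the member results was not tested.

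Within groups most pairs of members were positively correlated. After the group means were removed, the 561 pairs of members had a median correlation of 0.356 over 37 arrays, 90.0% were above 0 and 33.3% above 0.5. Arrays that share a clone label are not independent, and no p is given. Fbl, Srm, Rrp12 and Mybbp1a had the highest mean correlation with the other members, 0.514, 0.506, 0.5 and 0.499. Nolc1 (-0.010), Shmt1 (0.066) and Polr1a (0.136) had the lowest. The closest pair was Nop56 and Gnl3, at 0.911, and the most opposed was Polr1a and Cad, at -0.54. The B6 male Cdca7l arrays 5.6(1) and 4(3) held the extremes of both Polr1a and Cad. On 5.6(1) Polr1a read 7.273 and Cad 3.198, and on 4(3) they read 5.79 and 10.778. The correlation without these arrays was not computed.

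With the group means removed in the same way, the member score correlated with the scores of other large-subunit assembly genes (Pearson 0.925, Spearman 0.888) and small-subunit assembly genes (0.911 and 0.874). It correlated with S-phase genes at 0.642 and 0.584, with G2/M genes at 0.442 and 0.401, and with astrocyte markers at -0.776 and -0.652. Without the 2 arrays farthest from the median of each measure, Pearson values were 0.901, 0.887, 0.558, 0.497 and -0.739. With all arrays, ependymal and choroid plexus markers were at -0.544 and -0.623, and oligodendrocyte lineage markers at -0.481 and -0.481. Neuron markers were at -0.368 and -0.22. Microglia and macrophage, fibroblast and meningeal, and endothelial markers had Pearson values of 0.010, 0.064 and 0.081. For single genes, again with group means removed from both, Pearson's r with the member score was 0.488 for Myc, -0.401 for Mycn and 0.399 for Cdca7l. Without the 2 farthest arrays it was 0.420, -0.394 and 0.397. These values are within groups and leave out the difference between Cdca7l and vector arrays. These are descriptions over arrays that share clone labels, with no p.

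**Figure D5:**
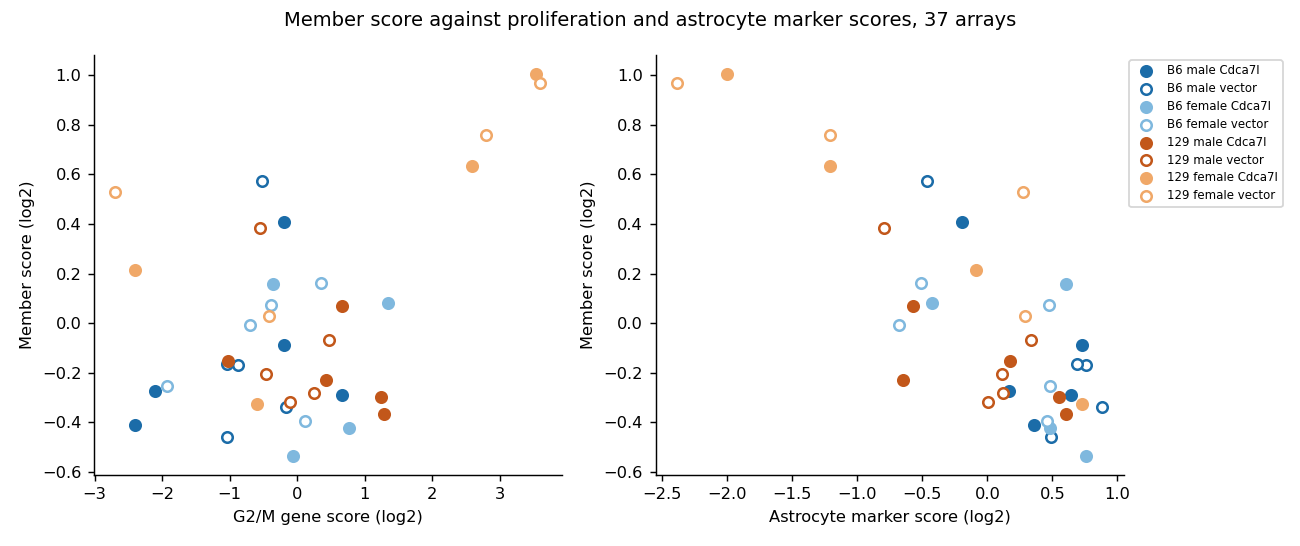
Member score of each of the 37 arrays against its G2/M gene score (left) and astrocyte marker score (right), both in log2 and each less the mean over arrays. Filled points are Cdca7l and open points vector arrays. The 4 arrays of the 129 female labels 4(1) and 2(1) have the highest G2/M and the lowest astrocyte marker scores.

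The spread within groups differed between members. The residual SD had a median of 0.559 over members, against 0.643 over all tested probe sets, at median levels of 10.65 and 8.60. It was smallest for Odc1 (0.128), Ncl (0.224), Rrs1 (0.234) and Npm1 (0.243), and largest for Cad (1.30), Wdr18 (1.15), Ppan (0.956) and Rrp9 (0.855). Those with the smallest SD were among the brightest members, with means of 13.02 to 14.28. Whether a high signal itself narrows the spread was not tested. Odc1, ornithine decarboxylase, stayed between 13.99 and 14.62 on all arrays, whereas Cad spanned 3.20 to 10.78. The lowest Cad value was that of B6 male Cdca7l 5.6(1), and the next lowest was 6.38, on B6 female vector 2.1(1). Dim members limit the precision: Polr1b averaged 3.88 and Wdr18 4.94, with 35 and 34 arrays above the background level.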

How the data were processed

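RNA of 37 astrocyte samples was amplified from 10 ng and hybridised to 1-colour Affymetrix arrays. The deposited values are log2 intensities made with GCRMA in Partek 6.5, per the submitters' processing notes, and were used as deposited (1.17 to 15.26). The array annotation names 34958 of 45101 probe sets with 1 gene, 932 with several and 9211 with none, and 34749 were matched to RefSeq genes (GRCm38.p6) by Entrez number. Arrays carry no read depth, so their number limits the precision.

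Probe sets above the table's median of 3.189 on at least 4 arrays were tested (25579), 19458 others and 64 controls were left out. limma 3.58.1 in R 4.3.3 fitted a mean per group over all 37 arrays with 29 residual degrees of freedom. Calls have a Benjamini-Hochberg adjusted p under 0.05, two-sided, over all tested probe sets. Of 14 comparisons, 5 (sex within strain, strain within sex and their difference) were added after seeing the data, as were averaging clone labels and leaving out the 129 female labels 4(1) and 2(1). The other alternatives were another variance prior, filter, normalization, probe set, array weights, replicate blocks, vector arrays alone and leaving out arrays. The fit was tried on simulated data with independent noise on each array and planted differences of B6 minus 129. That setting holds no shared clone labels, so it cannot show how calls fare with them. Named members are those called in a comparison or, where none was, the 4 with the smallest p, and others were named for their role. Members and lists were chosen with earlier results of these data known.

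Residuals of arrays with the same clone label correlated at 0.376 to 0.775 in B6, -0.0887 to 0.623 in 129 males and 0.061 to 0.716 in 129 females. The rule that every pair exceeds 0.1 was met in B6 alone. In 129 the low pairs were male 3(3) and female 2(3). The others were at 0.472 to 0.623 in males and 0.416 to 0.716 in females, so most labels pair arrays there too. The main fit leaves this pairing out, and the fits with a replicate block or with labels averaged take it in. The sources used here do not state whether labels stand for separate animals, and p-values measure the spread between these arrays. Promoters are those of RefSeq. Python 3.11.15 with pandas 2.3.3, numpy 2.4.6, scipy 1.17.1 and matplotlib 3.10.9 did the rest.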

Additional observations from a re-analysis of the deposited data

Results flagged for a closer look

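In groups of 4 or 5 arrays, 192 sets of values (the members named for a call, and 7 scores) were searched for an array far from the others, and 16 were found. Chance gives about 1 in 20 groups.

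B6 male 4(3) stood apart most often. Its member score was 0.574 with vector, where the nearest other array of the group had -0.163. Its snoRNP protein score was 0.716 with vector (nearest -0.127) and its small-subunit factor score was 0.589 with vector (nearest -0.28) and 0.338 with Cdca7l (nearest -0.27). Noc2l read 8.364 on its Cdca7l array (nearest 7.904) and Rrp9 4.083 on its vector array (nearest 2.971).

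The 129 male vector array 3(3) had an RNA polymerase I subunit score of 0.813 (nearest -0.033) and a large-subunit factor score of 0.697 (nearest -0.077), with Bop1 at 10.675 (nearest 9.822) and Rrp9 at 5.756 (nearest 3.326). The 129 female Cdca7l array 1(3) was low, with Nop56 at 11.734 (nearest 13.132) and Shmt1 at 5.059 (nearest 6.542). The 129 female Cdca7l array 4(1) had an RNA polymerase I subunit score of 0.99 (nearest -0.213). Single low values were those of Nme1 on B6 male Cdca7l 5(3), 11.67 (nearest 12.324), and of Noc4l on B6 male Cdca7l 3(5), 10.359 (nearest 11.085). Rrp9 on 129 male Cdca7l 3(1) was high, at 3.589 (nearest 3.032).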

How the results depend on the processing

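Of the counts and medians over members, 973 values under an alternative stayed near the value as reported and 35 moved. A median was near when it shifted by less than 0.35, the within-group SD of the member score. A count was near when equal or of like size. The Cdca7l medians are smaller than 0.35, so the rule does not show whether their sign held. In 129 females that median ran from -0.415 to 0.0588 with single arrays left out, and 0 of these counted as moved. Leaving out the 4 arrays of the 129 female labels 4(1) and 2(1) gave 0 members for B6 minus 129 in females (median -0.226), 0 for male minus female in 129 (median -0.202) and 4 for B6 minus 129 averaged, with a median of -0.193 for the difference between the strain differences. Those fits hold fewer arrays. Array weights, whose estimation stopped before convergence, gave 25 in females, 24 in 129, 24 for the averaged strain difference, 13 for male minus female and 20 for the difference between the strain differences (median -1.10). Centring gave 23 in females and 21 in 129, and quantile normalization 14 in 129. Averaging clone labels gave 7 in females, 1 in 129 and 1 for B6 minus 129 in males. The random replicate block (correlation 0.409) gave 1 in 129 and 1 in males. The second-brightest probe sets gave 7 in females and 3 in 129, but over fewer members. Nop2, Rrp12, Rrp9 and Srm, all called in females, have 1 probe set each, as do some others. Vector arrays alone gave 4 in females, 1 in 129, 1 in males and 4 for the averaged strain difference. The fixed replicate block, which can be fitted for the Cdca7l comparisons, gave 0 calls and a median of -0.037 averaged. Imp4 reversed for male minus female in 129, to 0.0564 with its second probe set. Leaving out single arrays gave 3 to 19 members in 129, 9 to 19 in females, 2 to 2 in males, 9 to 17 for the averaged strain difference, 0 to 3 for male minus female, 0 to 4 for the difference between the strain differences, and 0 for the Cdca7l comparisons. The cause of these movements was not tested. Of the values of single members, 210 lost their call under an alternative, 7 gained one and 1495 kept their status, called or not called. The last number takes in members with the smallest p in comparisons with 0 calls, so it does not count calls that held. Dim probe sets (Rrp9, Polr1b) limit what can be read.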
